A study of Mus musculus with 6 samples.

Results

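Insulin-like growth factor 1 (IGF1), its receptors and the IGF binding proteins were followed in the white fat beneath the skin of the groin (inguinal) of cold-exposed mice. The members were chosen by name: the ligand gene Igf1, the receptor genes Igf1r and Igf2r, and the binding protein genes Igfbp2 to Igfbp7. All 9 are among the 21900 gene symbols of the deposited table, which gives values in FPKM, read counts scaled by exon length and library size. The 3 controls carried the genotype Foxp4fl/fl, and the 3 knockouts, labelled Foxp4AdipoQdelta/delta, had Foxp4, a forkhead transcription factor, deleted in cells that express Cre from the promoter of the adiponectin gene Adipoq, which is active in mature adipocytes. All 6 samples were from C57BL/6 mice aged 2 months, kept at 22 °C and then for 7 days at 4 °C, so no sample shows these genes without cold. By the labels the Cre transgene and the deletion go together, and their effects cannot be told apart. The labels do not state that each sample was a separate mouse, and the spread behind each p-value may be technical.

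IGF1 is made in liver and, under growth hormone, in many tissues including fat, and it signals through the receptor tyrosine kinase IGF1R. The receptor IGF2R has no kinase: it clears IGF2 from the cell surface and carries lysosomal enzymes tagged with mannose 6-phosphate. Binding proteins hold most IGF outside cells and either block it or deliver it, and proteases that cut them set it free. In fat, IGF1 signalling is known for its part in the growth and differentiation of adipocyte precursors.

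Recovered reads came to between 13180588 and 15998332 per library. Foxp4 itself stood at 4.01 to 5.76 FPKM in controls and 1.64 to 1.92 FPKM in knockouts, with an adjusted p of 0.070 in limma. At an adjusted p of 0.05, limma called 1 of 10787 genes (0.00927%) and no member. Control replicate 3 stood apart in markers of the stroma: the summed level of 10 adipose progenitor and fibroblast markers was 1170 FPKM there and 470 to 604 FPKM in the other 5 libraries. Knockout replicate 3 stood apart in skeletal muscle markers, with a sum of 314 FPKM against 16.3 to 103 FPKM. In whole-tissue RNA, fewer cells of a type and less RNA per cell cannot be told apart.

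Igfbp4, Igf1r, Igf2r and Igfbp6 were the tested members in which every knockout lay below every control in deposited FPKM, as in 22.7% of all genes tested. Igf1r was tested because its control mean alone reached 1 FPKM. The 250 bases before the transcription starts of these 4 members are shown because the deleted factor belongs to the forkhead family. The usual site of that family is TGTTTAC, with the shorter core TGTTT. They come from RefSeq (GRCm38.p6, the assembly of mm10) and run 5′ to 3′ on the strand of the gene, and capitals mark the core on either strand. No exon of the GENCODE M21 annotation lies in these 4 windows.
Igfbp4, chr11:99040994-99041243, plus strand: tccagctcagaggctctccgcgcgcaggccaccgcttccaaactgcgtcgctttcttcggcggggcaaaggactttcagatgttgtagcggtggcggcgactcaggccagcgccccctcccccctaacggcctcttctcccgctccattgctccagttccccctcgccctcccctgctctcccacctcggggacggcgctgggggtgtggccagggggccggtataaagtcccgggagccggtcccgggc
Igf1r, chr7:67952007-67952256, plus strand: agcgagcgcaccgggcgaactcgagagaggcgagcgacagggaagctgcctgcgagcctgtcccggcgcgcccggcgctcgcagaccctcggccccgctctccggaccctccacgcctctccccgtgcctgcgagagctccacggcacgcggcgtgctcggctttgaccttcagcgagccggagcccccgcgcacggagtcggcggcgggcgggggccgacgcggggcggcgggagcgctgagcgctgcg
Igf2r, chr17:12769707-12769956, minus strand: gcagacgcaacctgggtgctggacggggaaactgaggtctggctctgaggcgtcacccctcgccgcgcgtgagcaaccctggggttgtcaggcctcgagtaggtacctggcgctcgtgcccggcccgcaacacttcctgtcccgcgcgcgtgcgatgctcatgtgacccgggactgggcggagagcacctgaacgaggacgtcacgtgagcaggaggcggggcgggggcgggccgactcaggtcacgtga
Igfbp6, chr15:102143936-102144185, plus strand: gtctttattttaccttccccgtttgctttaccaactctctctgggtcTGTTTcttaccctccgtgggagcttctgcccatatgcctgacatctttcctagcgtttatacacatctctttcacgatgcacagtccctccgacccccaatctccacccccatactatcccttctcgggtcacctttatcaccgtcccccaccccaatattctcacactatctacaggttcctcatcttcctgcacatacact

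RefSeq listed 10 such windows for the 9 members, with 2 for Igfbp2. TGTTTAC, or its reverse complement GTAAACA, was in none of the 10 windows and in 3.17% of the 32851 mouse windows of the same length. The core TGTTT, or AAACA, which the longer motif contains, stood in the windows of Igf1 and Igfbp6 and in 1 of the 2 of Igfbp2, against 46.4% of all windows. The Igf1 window, at 87860861 to 87861110, lies inside the annotated gene and overlaps 2 exon entries of GENCODE M21. The Igfbp2 window that holds the core overlaps 1 exon entry, as does the window of Igfbp5. The windows of Igf1r, Igf2r, Igfbp3, Igfbp4 and Igfbp7 were rich in CG dinucleotides, with 22 to 42 each, while those of Igf1, Igfbp5 and Igfbp6 had 5, 10 and 7, and the median of all windows was 6. These matches describe letters in a window and do not show where a factor binds.

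Transcript levels spanned a wide range among the members. In controls the order by mean was Igfbp7 (143 FPKM), Igfbp6 (123), Igfbp4 (113), Igfbp5 (77.0), Igfbp3 (21.2), Igf1 (16.9), Igf2r (11.4), Igf1r (1.36) and Igfbp2 (0.025). The first 4 overlapped with their neighbours in this order, and so did Igfbp3 and Igf1, whereas Igfbp5 and Igfbp3, Igf1 and Igf2r, Igf2r and Igf1r, and Igf1r and Igfbp2 were apart in every control. Knockouts gave the same order except that Igf1 (13.1 FPKM) stood above Igfbp3 (11.4 FPKM), with overlap. FPKM divides by the whole merged exon length, which for Igf1r is 16791 bases and for Igfbp7 1209 bases, so these levels depend on that gene model.

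**Figure D1:**
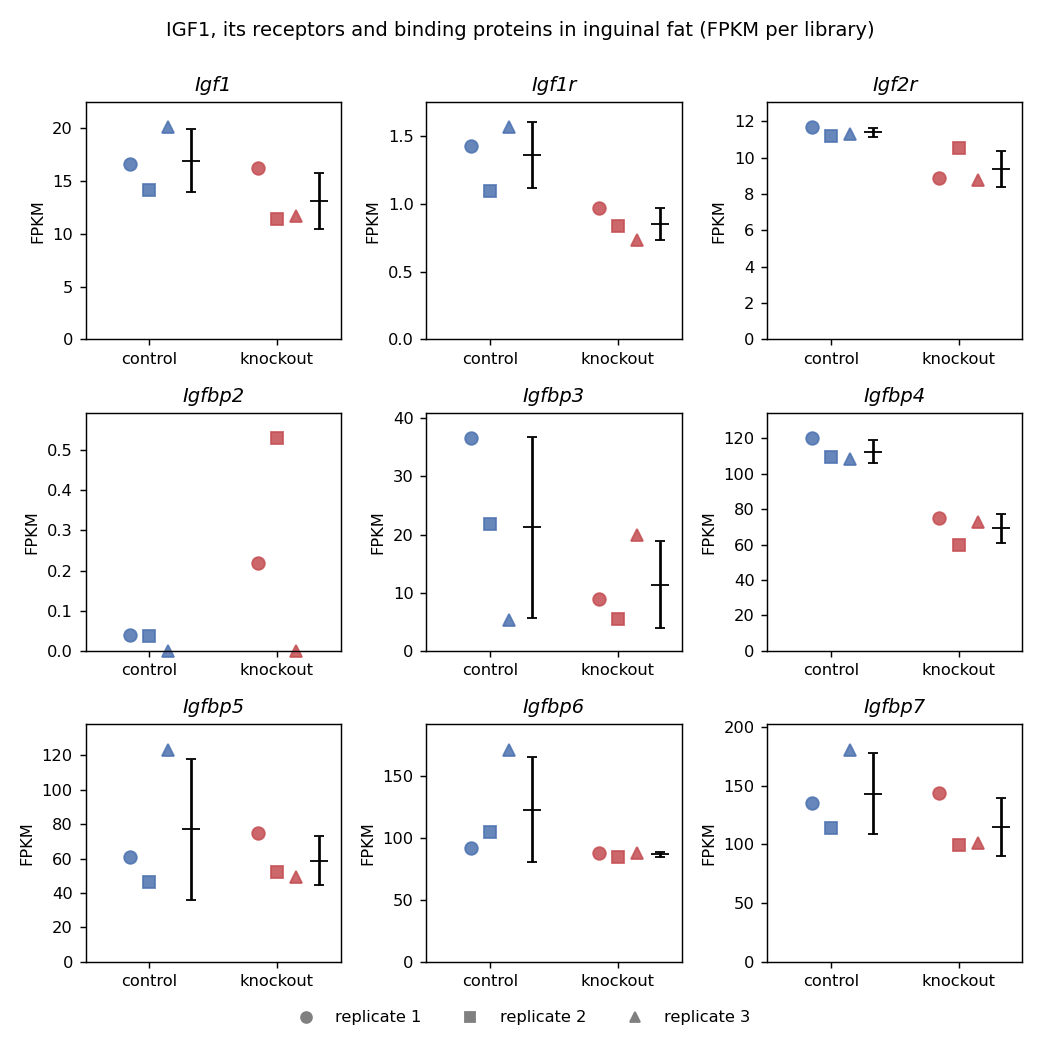
FPKM of each member in the 3 control libraries (blue) and the 3 knockout libraries (red), with the mean and SD in black except for Igfbp2. Every axis starts at 0. All 3 knockouts lie below all 3 controls for Igf1r, Igf2r, Igfbp4 and Igfbp6, as for 22.7% of all genes tested. Control replicate 3 is the highest library for Igf1, Igf1r, Igfbp5, Igfbp6 and Igfbp7.

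Igf1 (chromosome 10, 87858265 to 87937042, plus strand, mm10) had 16.6, 14.2 and 20.1 FPKM in controls and 16.2, 11.4 and 11.7 FPKM in knockouts. Knockout replicate 1 lay among the controls, while the other 2 knockouts lay below all of them. The means were 16.9 ± 2.98 and 13.1 ± 2.68 FPKM (SD, n = 3), and between 1502 and 3208 reads per library stand behind them. By limma the log2 fold change stood at -0.35 (SE 0.17, 95% interval -0.74 to 0.039, adjusted p = 0.24), with an interval that holds both signs. The fold change was -0.23 without control replicate 3 and -0.50, with an unadjusted p of 0.014, without knockout replicate 1 (limma).

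Macrophages are a known source of Igf1 in fat, and all 10 of the macrophage markers were lower in every knockout than in every control, as were 22.7% of all genes tested. Their summed level was 585 to 779 FPKM in controls and 369 to 480 FPKM in knockouts, led by the lysozyme gene Lyz2 (238 to 293 and 132 to 201 FPKM) and the complement gene C1qa (111 to 154 and 74.5 to 85.8 FPKM). Relative to Csf1r, the receptor gene that marks macrophages, Igf1 was at a ratio of 0.64, 0.53 and 0.56 in controls and 0.86, 0.65 and 0.53 in knockouts, which overlap. The part of macrophages in the Igf1 values was not tested. Over the 6 libraries the tested genes with the pattern most like that of Igf1 were Abi3bp (Pearson r = 0.997), Ampd2 (0.996), Dpp3 (0.996), Zfp654 (0.993) and Rpn2 (0.993). Their Spearman rho was 1, 0.89, 1, 0.94 and 1. These values are the highest of all genes tested, chosen for being so, and the libraries share genotype and any difference in tissue makeup.

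Igf1r (chromosome 7, 67952827 to 68233668, plus strand) was the scarcest receptor transcript, at 1.42, 1.09 and 1.56 FPKM in controls and 0.97, 0.83 and 0.74 FPKM in knockouts. The groups did not overlap. The means were 1.36 ± 0.24 and 0.85 ± 0.12 FPKM (SD, n = 3), a knockout level 37.7% lower, from 268 to 423 reads per control and 186 to 241 reads per knockout. On the scale of log2(FPKM + 1), which understates changes of low genes, the fold change was -0.35 (SE 0.12, unadjusted p = 0.018, adjusted p = 0.14 in limma). With limma's voom on recovered reads, which adds no such constant, it was -0.68 (SE 0.18, adjusted p = 0.091). On the log2(FPKM + 1) scale it was -0.29 without control replicate 3, with an unadjusted p of 0.0503 (limma). The unadjusted p was 0.053 without control replicate 1 and 0.062 without knockout replicate 3 (limma). It was under 0.05 in 9 of 12 alternatives. Igf1r passed the filter of 1 FPKM through its control mean alone.

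The insulin receptor gene Insr, whose product is close kin of IGF1R and pairs with it in hybrid receptors, stood at 13.4, 14.1 and 10.2 FPKM in controls and 12.2, 12.1 and 12.7 FPKM in knockouts. Limma put its fold change at -0.01 (SE 0.12, adjusted p = 0.95), and the sign turned under 5 of 13 alternatives. Per length, Insr was 9.38, 12.9 and 6.56 times the level of Igf1r in the controls and 12.6, 14.5 and 17.3 times in the knockouts, with 1 knockout below the highest control.

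Igf2r (chromosome 17, 12682406 to 12769664, minus strand) had 11.7, 11.2 and 11.3 FPKM in controls and 8.85, 10.5 and 8.74 FPKM in knockouts. Its controls differed among themselves by less than those of any other member, with an SD that was 2.11% of the mean, and every knockout lay below them. The means were 11.4 ± 0.24 and 9.37 ± 0.99 FPKM (SD, n = 3), a knockout level 17.8% lower, from 1218 to 1698 reads. By limma, its log2 fold change came to -0.26 (SE 0.088, 95% interval -0.47 to -0.055, unadjusted p = 0.020, adjusted p = 0.14). After median-of-ratios scaling it was -0.18 with an unadjusted p of 0.078 (limma). The unadjusted p was also above 0.05 after upper-quartile scaling and without control replicate 1, knockout replicate 1 or knockout replicate 3 (limma). It was under 0.05 in 8 of 13 alternatives. The gene Airn lies on the opposite strand and shares 28354 bases with Igf2r, and without a stated strand setting their reads may not have been kept apart.

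Igfbp4 (chromosome 11, 99041244 to 99054392, plus strand) showed the clearest difference of the members. Its product binds both IGFs, mostly inhibits them, and is cut by the protease PAPP-A. The controls had 120, 109 and 108 FPKM and the knockouts 74.9, 59.4 and 73.0 FPKM. The lowest control lay well above the highest knockout. The means were 113 ± 6.52 and 69.1 ± 8.41 FPKM (SD, n = 3), so the knockout level was 38.6% lower, and 3486 to 7700 reads per library support them.

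Igfbp4 had a log2 fold change of -0.70 (SE 0.11, 95% interval -0.96 to -0.44). Its unadjusted p of 0.00032 was undercut by 44 of the 10787 genes, and the adjusted p of 0.070 in limma missed the threshold of 0.05. It was the 1 member with an adjusted p at or under 0.10, against 3.71% of all genes tested that were lower at that level. Over 13 alternatives the fold change ran from -0.76 to -0.60, the unadjusted p was under 0.05 in all 13, and the adjusted p ran from 0.062 to 0.29. The summed level of 10 adipocyte markers was apart, at 13157 to 14539 FPKM in controls and 10481 to 11389 FPKM in knockouts, led by adipsin (Cfd), with 5796 to 6621 and 3569 to 4409 FPKM, and the fatty acid carrier gene Fabp4, with 2238 to 2773 and 2454 to 2531 FPKM. Without Cfd the sums overlapped, at 7087 to 8743 and 6910 to 7367 FPKM, so the separation rests on that gene. Of these 10 markers, 3 (Cfd, Adipoq and Cidec) were lower in every knockout, a share near the 22.7% of all genes tested. Igfbp4 was 9.33, 9.10 and 9.41% of the Adipoq level in controls and 8.01, 6.93 and 8.86% in knockouts, a ratio chosen after the values were seen. This ratio was lower in every knockout, by 14.5% in the mean. Its divisor Adipoq fell too, from a control range of 1150 to 1286 FPKM to a knockout range of 823 to 935 FPKM. That is 28.1% lower in the mean, so the 14.5% is what remains of the Igfbp4 difference relative to a lower divisor. The part of adipocyte content in the Igfbp4 difference was not tested.

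Igfbp6 (chromosome 15, 102144362 to 102149511, plus strand) encodes a binding protein that prefers IGF2. The controls had 92.3, 105 and 172 FPKM and the knockouts 88.2, 84.5 and 87.7 FPKM. The knockouts were nearly equal to one another, and the controls were spread out by replicate 3. The means were 123 ± 42.6 and 86.8 ± 1.99 FPKM (SD, n = 3), with 1248 to 3076 reads per library. By limma it differed by -0.44 in log2 (SE 0.21, 95% interval -0.95 to 0.059, adjusted p = 0.25). The difference was -0.18 without control replicate 3 and -0.62, with an unadjusted p of 0.019, without control replicate 1 (limma).

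Igfbp7 (chromosome 5, 77349240 to 77408041, minus strand), whose product binds IGFs weakly and is abundant in vessels, was the most abundant member. It had 136, 114 and 181 FPKM in controls and 144, 99.7 and 101 FPKM in knockouts, and the groups overlapped. The means were 143 ± 34.3 and 115 ± 25.0 FPKM (SD, n = 3). In limma this gave a log2 fold change of -0.31 (SE 0.21, 95% interval -0.80 to 0.17, adjusted p = 0.38). It was -0.13 without control replicate 3, -0.47 without control replicate 2 and -0.48, with an unadjusted p of 0.048, without knockout replicate 1 (limma).

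Igfbp5 (chromosome 1, 72857932 to 72874884, minus strand), which encodes a binding protein held in the matrix, had 61.1, 46.3 and 123 FPKM in controls and 75.0, 52.0 and 49.1 FPKM in knockouts. Control replicate 3 alone set the controls higher. The means were 77.0 ± 40.9 and 58.7 ± 14.2 FPKM (SD, n = 3), with a log2 fold change of -0.29 (SE 0.35, 95% interval -1.10 to 0.53, adjusted p = 0.64 in limma). Without control replicate 3 it was 0.11, so the direction itself rests on that library.

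Control replicate 3 was at 2.30 times the mean of the other 2 controls for Igfbp5, 1.74 times for Igfbp6 and 1.45 times for Igfbp7. It was at 1.31 times that mean for Igf1 and 1.24 times for Igf1r. For Igfbp4 this ratio was 0.94, for Igf2r 0.99 and for Igfbp3 0.18. The same ratio was 2.13 for the summed progenitor and fibroblast markers, led by the collagen genes Col3a1 (101, 137 and 406 FPKM in controls) and the proteoglycan gene Dcn (147, 169 and 196 FPKM), 1.88 for mural markers (Rgs5 at 28.4, 25.8 and 69.9 FPKM, Acta2 at 18.5, 9.75 and 20.8 FPKM) and 1.87 for endothelial markers (Cldn5 at 28.6, 35.0 and 62.5 FPKM, Cdh5 at 24.1, 21.2 and 49.0 FPKM). For macrophage markers it was 1.26, and for adipocyte markers 0.92. The progenitor, mural and endothelial sums overlapped between genotypes. They were at 497 to 1170 and 470 to 604 FPKM for progenitors, 63.0 to 141 and 75.7 to 88.2 FPKM for mural cells, and 106 to 199 and 107 to 148 FPKM for endothelium. Single markers did not all follow: 4 of the 10 progenitor and fibroblast markers, Dcn among them (121 to 129 FPKM in knockouts), were lower in every knockout than in every control, as were 2 of 8 endothelial markers, 0 of 8 mural markers and 22.7% of all genes tested. The 2 collagen genes of the progenitor list, Col3a1 and Col1a1, reached 406 and 199 FPKM in control replicate 3. The other 8 markers summed to 342, 408 and 564 FPKM in controls and 328, 319 and 304 FPKM in knockouts, which do not overlap, with control replicate 3 the highest. Their part in the binding protein values was not tested.

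**Figure D2:**
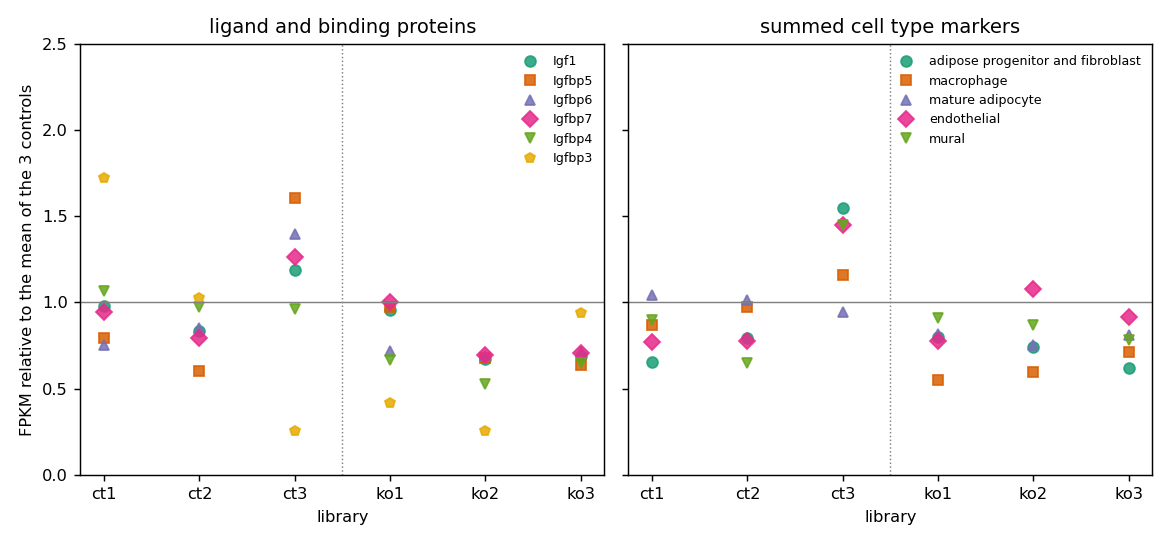
FPKM relative to the mean of the 3 controls, for Igf1 and 5 binding proteins (left) and for summed markers of 5 cell types (right), by library (ct, control, ko, knockout). In control replicate 3 Igfbp5, Igfbp6 and Igfbp7 stand high together with the progenitor, mural and endothelial sums, while Igfbp3 is low and Igfbp4 stays near 1.

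Igfbp3 (chromosome 11, 7206086 to 7213923, minus strand) encodes the main carrier of IGFs in blood. It had 36.6, 21.8 and 5.35 FPKM in controls and 8.81, 5.44 and 19.9 FPKM in knockouts. Its levels differed 6.83-fold between libraries, more than those of any other tested member, and the lowest library was a control. The 226 to 1612 reads per library make counting error small beside this spread. The means were 21.2 ± 15.6 and 11.4 ± 7.56 FPKM (SD, n = 3), with a log2 fold change of -0.68 (SE 0.68, 95% interval -2.29 to 0.93, adjusted p = 0.56 in limma). It was -0.13 without control replicate 1 and -1.42 without control replicate 3.

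Igfbp2 (chromosome 1, 72824503 to 72852474, plus strand) was close to absent, with 0.038, 0.037 and 0 FPKM in controls and 0.22, 0.53 and 0 FPKM in knockouts. These values are 1, 1 and 0 reads against 6, 13 and 0 reads, and a count of 0 allows up to 3 reads in a library. No library reached the filter of 1 FPKM, so the gene was not tested and no fold is given. Igfbp2 and Igfbp5 point at each other on chromosome 1, their ends 5457 bases apart, and 1 is nearly silent and the other abundant. The same holds on chromosome 11, where Igfbp1 ends 3539 bases from Igfbp3: Igfbp1 had 0 reads in all 6 libraries.

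Summed over Igfbp2 to Igfbp7, the binding protein transcripts came to 446, 396 and 590 FPKM in controls and 391, 302 and 331 FPKM in knockouts. The groups were apart, though the lowest control and the highest knockout were close. Controls averaged 477 ± 101 FPKM and knockouts 341 ± 45.4 FPKM (SD, n = 3), a knockout sum 28.5% lower, and it was 0.81 of the control sum without control replicate 3. Igfbp7 made up 28.7 to 30.7% of the sum in controls and 30.5 to 36.8% in knockouts, Igfbp6 20.7 to 29.1% and 22.6 to 28.0%, and Igfbp4 18.3 to 27.6% and 19.2 to 22.1%. The smaller parts were Igfbp5, with 11.7 to 20.9% and 14.9 to 19.2%, and Igfbp3, with 0.91 to 8.20% and 1.80 to 6.01%. All of these shares overlapped between groups.

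**Figure D3:**
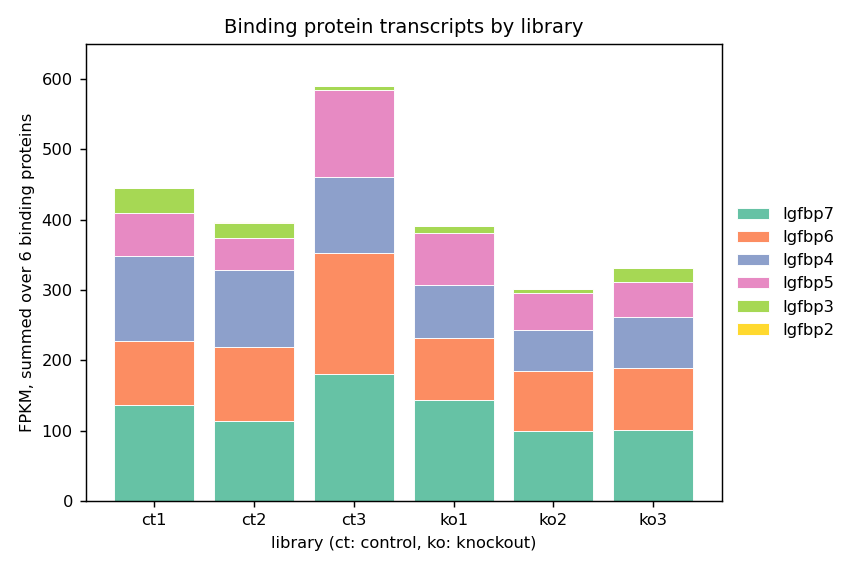
FPKM of the 6 binding protein genes stacked by library, controls (ct1 to ct3) beside knockouts (ko1 to ko3). The sums run from 396 to 590 FPKM in controls and from 302 to 391 FPKM in knockouts, and Igfbp2 is too low to be seen.

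Set against the ligand, the binding protein transcripts kept a narrow ratio as a sum, which does not hold for each of them singly. The sum was 26.9, 28.0 and 29.3 times the Igf1 level in controls and 24.1, 26.4 and 28.2 times in knockouts. The means were 28.1 ± 1.24 and 26.3 ± 2.06 (SD, n = 3), with overlap. Without Igfbp7, the largest part, the sum was 18.7, 19.9 and 20.3 times the Igf1 level in controls. In knockouts it was 15.3, 17.7 and 19.6 times. The means without Igfbp7 were 19.7 ± 0.85 and 17.5 ± 2.18 (SD, n = 3), also with overlap. Igf1 itself was 11.6, 13.0 and 12.9 times the Igf1r level in controls and 16.7, 13.7 and 15.9 times in knockouts, without overlap. Igf1 alone overlapped between groups. Its divisor Igf1r did not, and passed the filter through its control mean alone. The ratio to Igf1r was chosen after the values were seen. All of these are ratios of transcripts and say nothing of protein, much of which reaches fat from blood.

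Of the 9 members, 8 passed the filter and 3 of these (Igfbp4, Igf1r and Igf2r) were lower at an unadjusted p under 0.05, where 17.1% of all genes tested were. None was higher, against 6.98% of all genes. Igf1r entered through its control mean alone, and without it the count was 2 of 7. After median-of-ratios scaling 10.4% of all genes were lower and 12.2% higher at that level, and the members lower were Igf1r and Igfbp4. Groups without overlap in deposited FPKM, lower in knockouts, numbered 4 of the 8, or 3 of 7 without Igf1r, against 22.7% of all genes. Those higher without overlap numbered 0, against 8.48%. Divided by the median-of-ratios or the upper-quartile factors, Igf2r and Igfbp6 overlap between groups. The share of all genes without overlap was not counted after scaling. The fold change was below 0 for the 8, and for the 7 without Igf1r, as for 66.0% of all genes. Igfbp4 was the only member lower at this level without knockout replicate 3.

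The other genes of the pathway were taken from 5 lists by role, with 38 of 47 genes tested, and at an unadjusted p under 0.05 there were 8 of the 38 lower (21.1%, near the 17.1% of all genes) and 0 higher. Without Socs2 and Cish, which passed the filter through their control means alone, 6 of 36 were lower (16.7%). Either scaling gave 6 lower, and without a filter Stc1 was added as 1 higher. None passed when adjusted over all genes, the median fold change was -0.15 against -0.08 for all genes tested, and the count lower was 5 without control replicate 1, control replicate 3, knockout replicate 2 or knockout replicate 3. Among ligands and carriers Igf2, the fetal ligand, had 0 to 7 reads per library. Igfals, the subunit that joins IGFBP3 and IGF1 in blood, had 5.76, 4.97 and 5.94 FPKM in controls and 5.27, 2.38 and 2.36 FPKM in knockouts. Limma gave a log2 fold change of -0.66 (SE 0.24, adjusted p = 0.16), with knockout replicate 1 among the controls. The RNA-binding protein gene Igf2bp2 averaged 1.58 FPKM in the controls and 1.60 FPKM in the knockouts.

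Proteases that cut binding proteins differed in abundance. The PAPP-A gene Pappa had 2 to 17 reads per library and Pappa2 4 to 20, so the best known proteases of IGFBP4 and IGFBP5 were barely present as transcripts. The serine protease gene Htra1, whose product cuts IGFBP5 among other substrates, was abundant, with 45.6, 43.2 and 54.5 FPKM in controls and 34.9, 33.5 and 32.1 FPKM in knockouts. The groups were apart, with a limma log2 fold change of -0.49 (SE 0.10, adjusted p = 0.082). Its relative Htra3 had 73.7, 52.7 and 56.8 FPKM in controls and 50.3, 41.4 and 58.9 FPKM in knockouts, with overlap. Stc2, which encodes an inhibitor of PAPP-A, had 7.70, 3.24 and 2.75 FPKM in controls and 2.70, 2.12 and 2.73 FPKM in knockouts. The groups were barely apart, and the difference in log2 was -0.56 (adjusted p = 0.29 by limma), or -0.18 without control replicate 1.

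Growth hormone drives Igf1 through its receptor, JAK2 and STAT5, and the feedback inhibitors Socs2 and Cish are known STAT5 targets. The receptor gene Ghr had 107, 69.1 and 99.3 FPKM in controls and 94.2, 68.5 and 70.0 FPKM in knockouts, largely overlapping (log2 fold change -0.23, SE 0.19, adjusted p = 0.48 in limma). The Ghr value was -0.42, with an unadjusted p of 0.035, without control replicate 2, and -0.11 without control replicate 1 (limma). Socs2 was low, at 1.04, 0.95 and 1.17 FPKM in controls and 0.67, 0.62 and 0.46 FPKM in knockouts, without overlap. Limma gave a fold change of -0.38 (SE 0.11, adjusted p = 0.11), and -0.88 with voom on 66 to 180 reads per library, where the adjusted p was 0.072. Like Igf1r, it passed the filter through its control mean alone. Stat5b had means of 14.0 and 12.0 FPKM without overlap, and Cish had 1.10 and 0.41 FPKM, Socs3 2.68 and 1.63 FPKM, both with overlap. In this list 3 of 7 tested genes, Socs2, Stat5b and Cish, were lower at an unadjusted p under 0.05, where 17.1% of all genes were. Cish, like Socs2, passed the filter through its control mean alone, and without both the count was 1 of 5. That 1, Stat5b, had an unadjusted p of 0.15 after median-of-ratios and 0.12 after upper-quartile scaling (limma).

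Downstream of the receptors, 3 of 19 genes (15.8%) were lower at that level, below the 17.1% of all genes tested. Grb10, an adaptor that restrains the insulin and IGF1 receptors, had 9.60, 7.76 and 8.46 FPKM in controls and 6.01, 5.25 and 5.19 FPKM in knockouts. Its groups were apart, with a log2 fold change of -0.56 (SE 0.099, adjusted p = 0.076 in limma). The substrate gene Irs2 had 12.5, 7.67 and 9.34 FPKM in controls and 5.60, 6.72 and 7.14 FPKM in knockouts, also apart (-0.52, SE 0.17, adjusted p = 0.14 in limma). Irs1, with means of 5.06 and 3.98 FPKM, overlapped, and Foxo3, with 3.83 and 3.03 FPKM, did not. Grb10 lies among the imprinted genes, as do Igf2 and Igf2r.

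The partners of IGF2R in mannose 6-phosphate sorting showed little difference. None of the 7 tested had an unadjusted p under 0.05. The second mannose 6-phosphate receptor gene M6pr had 27.4, 26.2 and 27.1 FPKM in controls and 29.4, 27.7 and 26.4 FPKM in knockouts, which overlap. The means of Gga1 were 18.3 and 16.2 FPKM, those of Nagpa 7.60 and 6.64 FPKM, those of Gga2 7.11 and 6.70 FPKM and those of Gnptab 14.6 and 13.6 FPKM. M6pr was named after its values were seen.

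**Figure D4:**
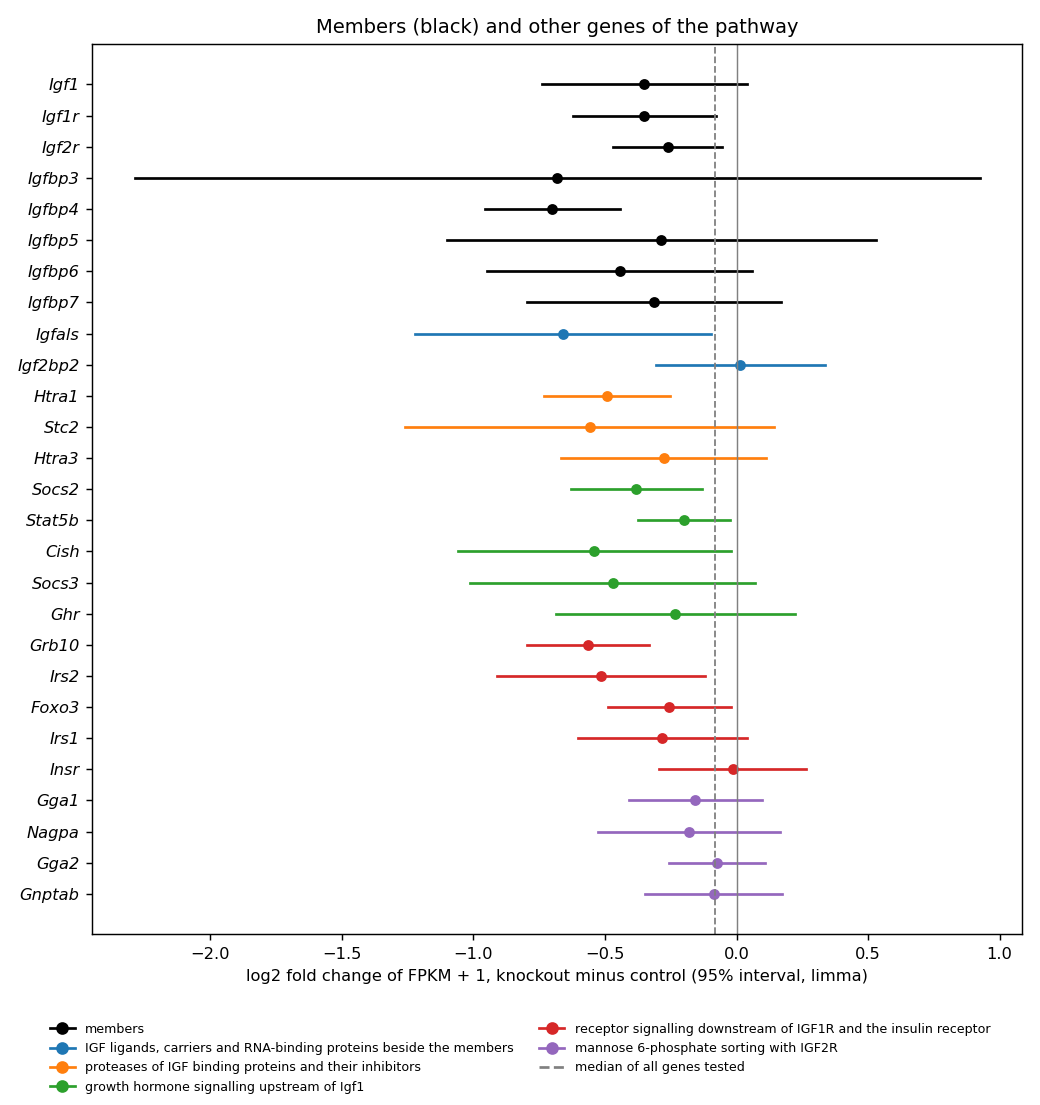
Log2 fold change of FPKM + 1, knockout minus control, with 95% intervals from limma, for the 8 members tested (black) and 19 named genes of the 5 pathway lists (colours). The solid line marks 0 and the dashed line the median of all genes tested, -0.08; the intervals of Igfbp4, Igfals, Htra1, Socs2, Grb10 and Irs2 lie below both lines, and that of Igfbp3 is the widest.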

How the data were processed

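Per the labels' protocols, polyadenylated RNA of 6 samples was sequenced on an Illumina instrument from strand-marking libraries. Cutadapt, HISAT2, HTSeq and mm10 appear in the submitters' processing notes. Their versions, the annotation and the strand setting of counting are not given in the sources. The deposited values are FPKM per gene. The unit was read from the values: FPKM times merged exon length (GENCODE M21) and 1 factor per library was within 0.05 of a whole number for 97.9 to 98.1% of values up to 50 reads. Recovered reads cover 21304 genes, and 36 rows repeating a symbol were left out.

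Values were tested as log2(FPKM + 1) in limma 3.58.1 (R 4.3.3) with its trended variance and genotype as the only term. A gene entered if either group mean reached 1 FPKM, and Benjamini-Hochberg adjustment ran over these 10787 genes, with a threshold of 0.05. With 3 libraries a side, no exact two-sided permutation test goes under 0.10. The members and lists were chosen with earlier results of these data known. Named genes were the members, Foxp4, up to 4 genes of each pathway list by unadjusted p, 9 genes of IGF signalling given by name, up to 2 abundant markers per cell type, and the 5 genes most like Igf1. The motif scan, its 250-base window, the ratios to Adipoq, Csf1r, Dcn and Igf1r, and the mention of Pappa2, Stc1, Igfbp1 and Airn were chosen after the values were seen. The alternatives were a pseudocount of 0.1, no filter, a filter at 5 FPKM, 2 scalings, voom on recovered reads, the replicate number as a block, and leaving out each library or Igfbp7. The marker sums without Cfd or the collagen genes, and the counts without genes whose knockout mean was under 1 FPKM, were added after the values were seen. Of 10 cell type lists, 1 is not reported here, and the others not described beside a result had summed levels that overlapped between groups: skeletal muscle (16.3 to 69.4 and 20.5 to 314 FPKM in controls and knockouts, led by Acta1 and Tnnt3), lymph node (2.35 to 3.80 and 1.71 to 3.78, led by Cd79a and Cd79b), mammary epithelial (0.43 to 1.26 and 0.17 to 0.70, led by Krt18 and Cdh1, with Krt14 at 0 in every library) and erythroid (977 to 1952 and 580 to 1100, led by Hbb-bs and Hba-a1).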

Additional observations from a re-analysis of the deposited data

How the results depend on the processing

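The count of genes past an adjusted p of 0.05, 1 as reported, was 0 without a filter, 2 with a filter at 5 FPKM, 0 with voom on recovered reads and 0 with the replicate block, and ran from 0 to 5 when 1 library was left out. Members lower at an unadjusted p under 0.05 numbered 3 as reported and 1 to 4 when 1 library was left out. Other pathway genes at that level numbered 8, and 5 with a filter at 5 FPKM, where fewer genes were tested, and 5 to 11 when 1 library was left out. No member passed an adjusted p of 0.05 under any alternative run. The fold change of Igfbp5 reversed to 0.11 without control replicate 3 (the lowest value with 1 library left out was -0.58), which was the single reversal among the 8 members. Reversals from values near 0 were those of Igf2bp2 (-0.073 without control replicate 3, -0.085 without knockout replicate 3), Gnptab (0.029 without control replicate 1, lowest -0.17) and Insr (0.064 with median-of-ratios and 0.049 with upper-quartile scaling, 0.032 and 0.069 without control replicate 1 or 2, and 0.00027 without knockout replicate 2, lowest -0.14). The cause was not tested. The knockout to control ratio of the binding protein sum, 0.71, was 0.68 without Igfbp7 and 0.66 to 0.81 when 1 library was left out. With the replicate number as a block 3 members were lower at that level, as without it. The numbers were not taken as pairs: deviations of same-numbered samples correlated at -0.25 to 0.065 and 0 of 6 libraries correlated best with their own number. Foxp4 and Igf1r lie under the filter at 5 FPKM and have no value there. Depth limits Igfbp2, Igf2, Pappa and Pappa2, with at most 20 reads in a library.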

Other observations

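Igfbp3, the member with the widest spread, was compared over the 6 libraries with the other tested genes, a choice made after its values were seen. The genes most like Igfbp3 were Mxd1 (Pearson r = 0.988), Rgs16 (0.984), Hgsnat (0.981), Glmn (0.981) and Car5b (0.980). Their Spearman rho was 1, 1, 1, 0.94 and 0.94. As for Igf1, these values are the highest of all genes tested, chosen for being so, and do not show a shared regulation. Mxd1 encodes a partner of MAX that represses MYC targets, and Rgs16 a regulator of G protein signalling. Mxd1 had 3.41, 3.03 and 1.88 FPKM in controls and 2.40, 2.00 and 2.78 FPKM in knockouts, and the mitochondrial carbonic anhydrase gene Car5b had 66.8, 53.1 and 37.9 FPKM and 46.7, 39.7 and 53.6 FPKM. Control replicates 1 and 2 and knockout replicate 3 were the highest for Igfbp3 and Mxd1, in an order that crosses the genotypes.

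The ratio of Igfbp6 to the fibroblast marker Dcn was close to level across the knockouts. It was 0.63, 0.62 and 0.88 in controls and 0.68, 0.70 and 0.73 in knockouts, with means of 0.71 and 0.70. This ratio was chosen after the values were seen. Stc1, which encodes an inhibitor of PAPP-A and did not reach the filter, had 21, 11 and 36 reads in controls and 46, 33 and 36 reads in knockouts. Its FPKM was higher in every knockout (0.57 to 0.74) than in every control (0.18 to 0.53), as for 8.48% of all genes tested. Control replicate 3 and knockout replicate 3 had the same 36 reads, so their order rests on library scaling alone.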
